A study of Mus musculus with 60 samples.

Results

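The Hox clusters are 4 runs of homeobox genes, and 38 of their genes, of 21901 genes read from the mouse annotation, were followed here in maps of H3K27me3, histone H3 trimethylated at lysine 27. The members were chosen by name and not by any measured value. They comprise 10 genes of HoxA (Hoxa2 to Hoxa13), 10 of HoxB, 9 of HoxC and 9 of HoxD. The spans from the first to the last of these genes add up to 485 kb of the mm10 genome. HoxA lay at chr6:52162417-52260880, HoxB at chr11:96194316-96368256, HoxC at chr15:102921103-103036852 and HoxD at chr2:74668310-74765142.

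The study converted mouse embryonic stem cells (ESCs) into anterior neural progenitors and asked how loss of the DNA dioxygenase TET1, or of its catalytic activity alone, changes Polycomb marking along the way. CUT&RUN, which cuts and releases DNA beside an antibody-bound protein, was done with an H3K27me3 antibody and with control IgG in 60 samples, of which the 30 H3K27me3 samples each gave 1 peak list. All lines carried the (B6×129S6)F1-Tet1tm1Koh background. The study's methods describe wild-type (WT) and Tet1 knockout (KO) ESCs as blastocyst-derived male lines. The origin of WT70, WT72 and KO25 is not given there by name. Catalytically dead (MUT) lines were single clones, made by Cas9 editing of exon 11 in a WT line. There were 2 lines per genotype at each of 5 points, namely ESCs in serum and LIF depleted of feeders (day 0), differentiation days 2, 3 and 5, and day 5 after the tankyrase inhibitor XAV939 at 5 µM from day 2. WT70, WT72, KO15 and CM59 were sampled throughout. KO25 and CM40 stood beside them at days 0 and 2, and were replaced by KO1 and CM69 from day 3, so any step from day 2 to day 3 also carries this change of line.

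Hox genes encode homeodomain transcription factors that give cells of the embryo their position along the body axis. They lie in the order in which they are used, with paralogue group 1 at the anterior-expressed end and group 13 at the posterior end. In ESCs and in cells of the anterior brain they are silent and carry H3K27me3, which Polycomb repressive complex 2 deposits in broad domains over whole clusters and which spreads most readily over CpG-rich DNA. The deposited peaks give where the mark was called and not how much RNA was made, so they cannot check the Tet1 genotype or the level of any Hox transcript.

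The libraries held 704 to 3466 peaks each. Read depth is not recorded in the peak lists, so signal was compared only as a rank or a share within a library. The CM59 library at day 2 and the CM59 library after XAV939 stood apart from the others of their time and results that rest on them are given with and without them. The fate markers were read only as peak calls. Of 8 anterior neural genes, 5 were called at the promoter in all 30 libraries (Six3, Rax, Lhx2, Lhx5 and Pax6). Sox1 was called in 29 and Hesx1 in none, whereas Otx2 was called in 12, of which 1 was sampled after day 2. Of 7 pluripotency genes, Esrrb was called in all 30, Klf4 in 21, and Nanog and Zfp42 in none. Pou5f1 was called in 11, all of them at day 5 with or without XAV939. Tfcp2l1 was called in 3 and Sox2 in 2, both of these KO libraries at day 5 without XAV939. Of 7 mesoderm genes, T and Eomes were called in all, Mesp1 in 29, Twist1 and Mef2c in 9 each, and Tbx6 and Meox1 in none. Of 5 endoderm genes, Sox17, Foxa2, Gata6 and Gata4 were called in all and Cxcr4 in 12. The calls therefore left the labelled identity of these cells unchecked at the level of RNA. The paper's own single-cell RNA data gave day 5 KO cells without XAV939 as mainly mesoderm and endoderm. WT cells were mainly ectoderm, and MUT cells were mostly ectoderm with some mesoderm and endoderm. With XAV939, most KO and WT cells took forebrain identity. At day 5 without XAV939 genotype and cell type therefore cannot be told apart here.

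The 4 clusters were among the widest H3K27me3 domains of the genome in these cells. When the peaks of all libraries were merged, the region over HoxC was 170 kb wide and ranked 1 of 3828 regions, that over Hoxb9 to Hoxb1 was 137 kb (rank 3), that over HoxA was 132 kb (rank 4) and that over HoxD was 123 kb (rank 5). Hoxb13, the posterior HoxB gene that lies far from the rest, had a separate region of 47.3 kb (rank 17). A merged region can rest on 1 library. Without KO25 at day 2 the HoxC region was 143 kb and ranked 2, and without KO1 with XAV939 the HoxD region parted and its piece from Hoxd13 on was 74.1 kb (rank 8). Of the bases in the 4 spans, 47.1% were covered in all 30 libraries and 6.56% in none. The share covered in all libraries was 71.0% in HoxA, 51.3% in HoxC, 45.6% in HoxD and 31.7% in HoxB. By this share HoxA was the most evenly marked span and HoxB the least. The HoxB span includes the DNA between the distant Hoxb13 and Hoxb9, and 18.3% of its bases were covered in no library.

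The uncovered bases all lay in HoxB. A stretch of 31.8 kb between Hoxb13 and Hoxb9 (chr11:96210063-96241877) was covered in no library, and a longer gap around it, of 43.4 kb, was spanned by no peak. The never-covered stretch had 45.6% GC, 11.6 CpGs per kb and 47.5% repeats, against 52.2% GC, 27.9 CpGs per kb and 12.3% repeats in the HoxB bases covered in all libraries. In each of the other clusters the bases covered in at most 20 libraries also had less GC, fewer CpGs and more repeats than the bases covered in all. In HoxD, for instance, CpGs per kb were 9.93 in the former and 36.4 in the latter. Whether base composition, repeats or mappability set these gaps was not tested. Stretches from the middle of the never-covered run and of the least often spanned gap of HoxD, between Hoxd3 and Hoxd4, are shown because no gap was spanned in fewer libraries than these 2, with CpGs in capitals.
HoxB, never covered, chr11:96225871-96226070, mm10, plus strand: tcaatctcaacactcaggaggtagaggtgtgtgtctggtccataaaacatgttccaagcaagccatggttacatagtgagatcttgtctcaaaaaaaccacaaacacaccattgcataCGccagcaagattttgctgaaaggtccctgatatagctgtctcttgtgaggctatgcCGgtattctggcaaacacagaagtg
HoxD, least often spanned gap of the cluster, chr2:74718024-74718223, mm10, plus strand: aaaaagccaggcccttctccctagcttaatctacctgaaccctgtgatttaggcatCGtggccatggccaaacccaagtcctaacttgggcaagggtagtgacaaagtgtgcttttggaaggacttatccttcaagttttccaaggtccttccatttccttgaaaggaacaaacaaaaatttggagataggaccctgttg
The first stretch held 2 CpGs and the second 1 CpG in 200 bases.

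**Figure D1:**
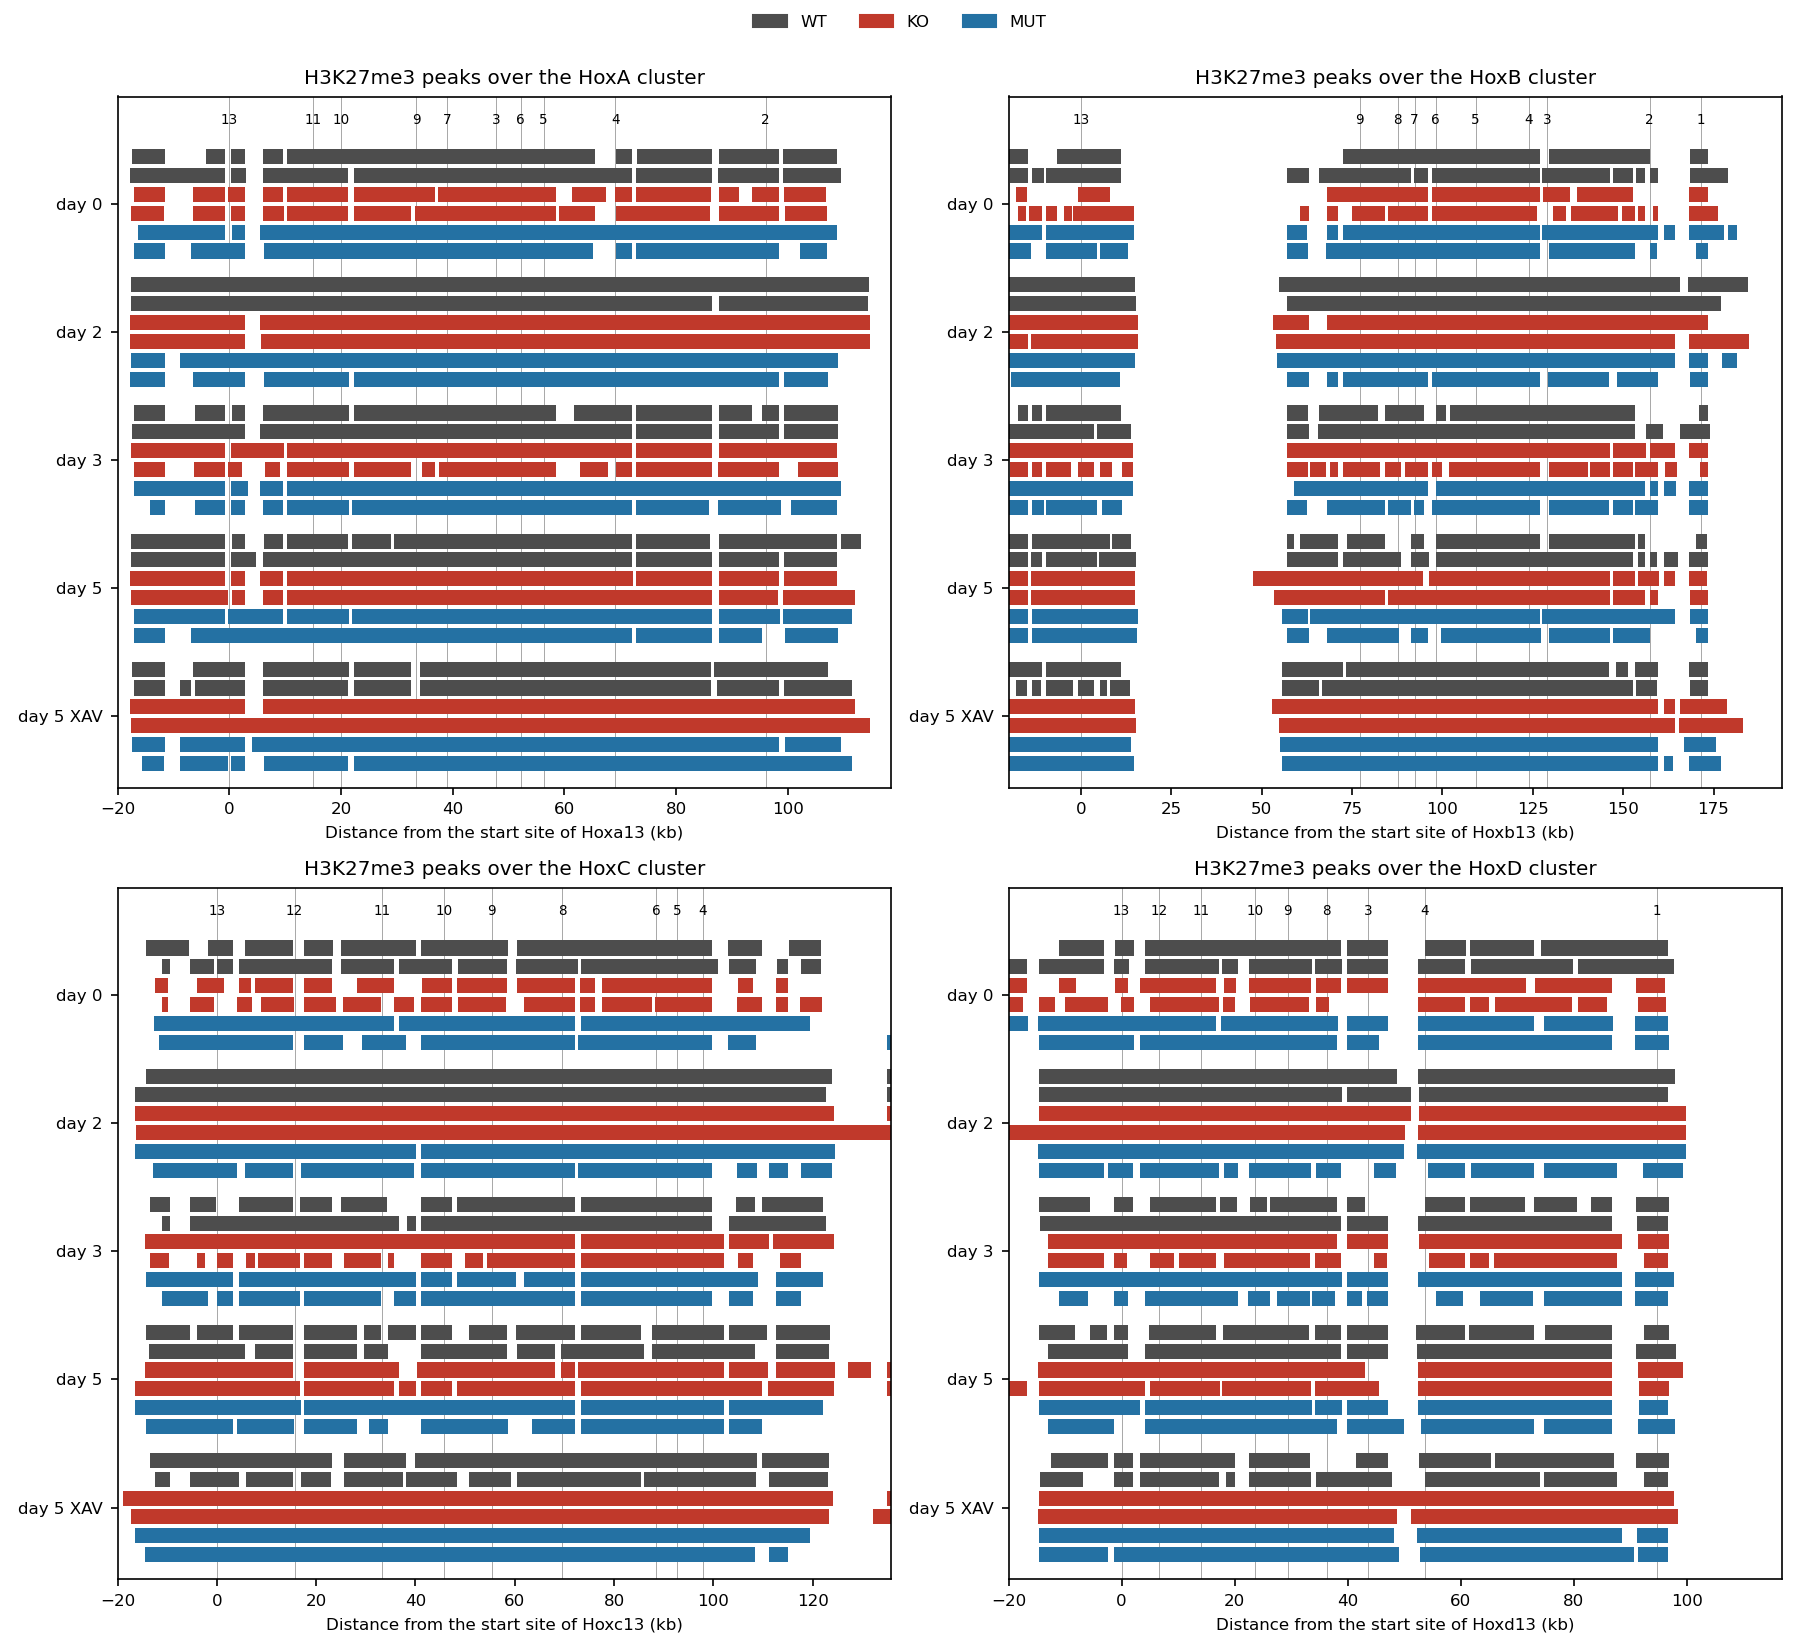
Peaks over the 4 Hox clusters in each of the 30 libraries, one row per library grouped by time and coloured by genotype, with the distance in kb from the start site of the paralogue 13 gene on the x axis and the most upstream coding start site of each member as a vertical line. Peaks are long and nearly unbroken at day 2 and in KO and MUT libraries after XAV939, and the stretch between Hoxb13 and Hoxb9 is empty in every row.

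The mark over the clusters was joined into few long peaks at day 2. At day 0 the number of peaks over the 4 clusters was 24 and 33 in WT70 and WT72, 37 and 43 in KO15 and KO25, and 18 and 22 in CM40 and CM59. At day 2 it was 7 and 8 in the WT lines, 8 and 8 in the KO lines, and 8 and 28 in CM40 and CM59. All libraries but CM59 had thus lost most of their breaks, and CM59 alone overlapped the day 0 values. The geometric mean of the count at day 2 was 0.342 times that at day 0 (difference −1.55 on the log2 scale, two-sided exact permutation p = 0.0278 within genotypes, n = 6 and 6, adjusted p = 0.111 over 36 tests). Paired within cell lines, 5 of 6 fell and the exact p was 0.0625. Without CM59 the day 2 range was 7 to 8. Leaving out CM40 or any WT or KO line gave sizes from −1.59 to −1.29 and an exact p of 0.0556 to 0.0833.

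The joined peaks covered more of each cluster. The covered share of the 4 spans rose from 76.2% ± 5.80 (SD, n = 6) at day 0 to 88.3% ± 5.25 (n = 6) at day 2. At day 0 the libraries lay at 69.4% to 84.6%, and at day 2 at 90.3% to 90.6% except for CM59 at 77.5%, so that the groups overlapped only through CM59. The rise was seen in 6 of 6 lines (12.05 percentage points, exact permutation p = 0.0185, adjusted p = 0.0833, paired exact p = 0.0312, the smallest that 6 pairs allow). HoxC was covered whole by 1 peak in 4 of 6 libraries at day 2 and HoxA in 2 of 6, and in none at day 0. The widest peak, over HoxC in KO25 at day 2, measured 168 kb and covered Hoxc13 to Hoxc4 together with flanking DNA.

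Peak height moved with this step. The median height of all peaks in a library was 39 to 71 at day 2 and 21 to 41 at day 0, and the highest signal over the clusters was 104 to 212 at day 2 and 39 to 75 at day 0. These heights are unscaled and depend on read number, and their part in the joining of peaks was not tested. Other wide domains moved in the same direction. The 20 widest merged regions outside the Hox clusters were 55.3% covered at day 0 and 76.5% at day 2, and taken relative to them the Hox coverage moved by −9.14 percentage points (exact permutation p = 0.0741). The number of peaks over the clusters still fell relative to those regions (−1.13 on the log2 scale, exact permutation p = 0.0278). The regions were picked by merged width over these same 30 libraries. The widest was called in 15 of them and the one holding Ins2 in 10, so their coverage depends on the libraries that widened them. Values and p-values relative to them are therefore a description, here and below.

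The breaks returned at day 3. Over the clusters 33 and 18 peaks were called in WT70 and WT72, 17 and 49 in KO1 and KO15, and 20 and 36 in CM59 and CM69. The count rose 2.76-fold from day 2 (1.47 on the log2 scale, exact permutation p = 0.0185, adjusted p = 0.0833). The covered share was 79.1% ± 6.83 (n = 6), a difference of −9.15 percentage points from day 2 that did not pass (exact permutation p = 0.0556). The 20 widest other regions fell further, from 76.5% to 43.1%, so that relative to them the Hox coverage rose by 24.25 percentage points (exact permutation p = 0.00926). Because those regions were picked by width on these libraries, values relative to them are a description. Only 4 lines were sampled at both days, with which the paired exact test cannot go below p = 0.125. In those the count rose in 3 and fell in CM59. Between days 3 and 5 neither value passed the test, although relative to the other wide regions the coverage rose by 8.82 percentage points (exact permutation p = 0.00926). At day 5 the counts were 38 and 28 in WT, 22 and 23 in KO, and 19 and 24 in MUT lines (exact permutation p = 0.796), with a covered share of 81.3% ± 5.10 (n = 6).

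XAV939 was followed by joined peaks again. At day 5 with XAV939 the clusters held 22 and 29 peaks in WT70 and WT72, 8 and 7 in KO1 and KO15, and 9 and 12 in CM59 and CM69. The KO and MUT counts did not overlap with those at day 5 without the inhibitor, and the WT counts did. In the paper KO cells also changed from mesoderm and endoderm to neural identity with XAV939, so inhibitor and cell type cannot be told apart in these lines. Across genotypes the count was 0.500 times that at day 5 (−0.999 on the log2 scale, exact permutation p = 0.0185, adjusted p = 0.0833), with a fall in 5 of 6 lines and a rise of 1 peak in WT72 (paired exact p = 0.0625). The covered share rose in 6 of 6 lines, by 5.42 percentage points to 86.7% ± 4.57 (exact permutation p = 0.00926, adjusted p = 0.0833, paired exact p = 0.0312). It reached 90.9% and 91.1% in the KO lines, 88.3% and 87.7% in the MUT lines and 81.1% and 81.0% in the WT lines. The KO and WT values did not overlap, and the difference between genotypes at this time was not tested. The 20 widest other regions were covered to 44.5% and 48.1% in KO and 32.8% and 32.1% in WT lines, again without overlap. In the MUT lines those regions were covered to 34.4% and 37.2%. An exact permutation test of 2 lines against 2 cannot go below p = 0.333. Relative to the 20 widest other regions the count fell by 0.49 on the log2 scale (exact permutation p = 0.0556), a description as above.

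**Figure D2:**
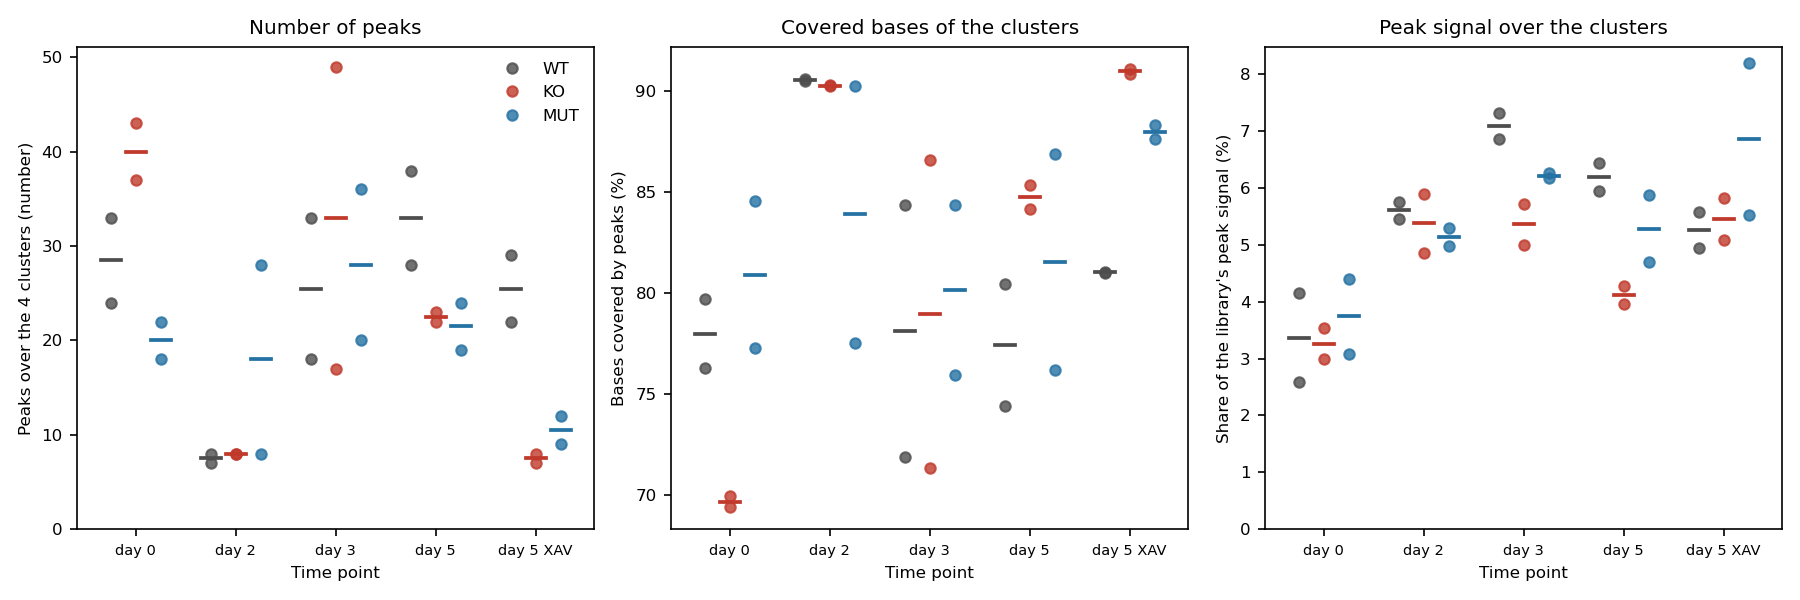
Number of peaks over the 4 clusters, covered share of their bases in percent and share of peak signal in percent, for each library (points, coloured by genotype) at each time, with the mean of the 2 lines of a genotype as a bar. Peak counts at day 2 lie at 7 or 8 except for 1 MUT library at 28, and at day 5 with XAV939 the KO and MUT libraries lie at 7 to 12 below the WT libraries at 22 and 29.

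Breaks fell at the same places in many libraries. There were 23 recurrent gaps, defined as runs of at least 500 bp covered in at most 20 of 30 libraries, with 5 in HoxA, 7 in HoxB, 6 in HoxC and 5 in HoxD. They measured 543 bp to 43.4 kb with a median of 1154 bp, and start sites of Hoxb2 and Hoxc12 lay inside 2 of them. At day 0 a median of 5 gaps (0 to 14) was spanned whole, at day 2 18.5 (4 to 20), at day 3 6 (1 to 11) and at day 5 7.5 (1 to 8). After XAV939 the number was 11 and 10 in WT70 and WT72, 20 and 20 in KO1 and KO15, and 18 and 16 in CM59 and CM69. More libraries spanned a gap at day 2 than at day 0 for 20 of the 23 gaps, and more with XAV939 than without for 19. Because the gaps were defined over all 30 libraries, these counts are a description.

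Single gaps differed widely. The 5.48 kb gap between the start sites of Hoxd3 and Hoxd4 (chr2:74715384-74720863) was spanned in 1 of 30 libraries, KO1 with XAV939. The 8.86 kb gap between Hoxb2 and Hoxb1 (chr11:96353838-96362694) was spanned in 2, one WT and one KO library, both at day 2. The 3.24 kb gap between Hoxa11 and Hoxa13 (chr6:52254827-52258064) was spanned in 7. By contrast, the 587 bp gap between Hoxd9 and Hoxd8 was spanned in 19. A gap of 1.23 kb over the Hoxb2 start site was spanned in 6 of 6 libraries at day 2 and after XAV939, but in 1 of 6 at day 0 and 2 of 6 at days 3 and 5.

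**Figure D3:**
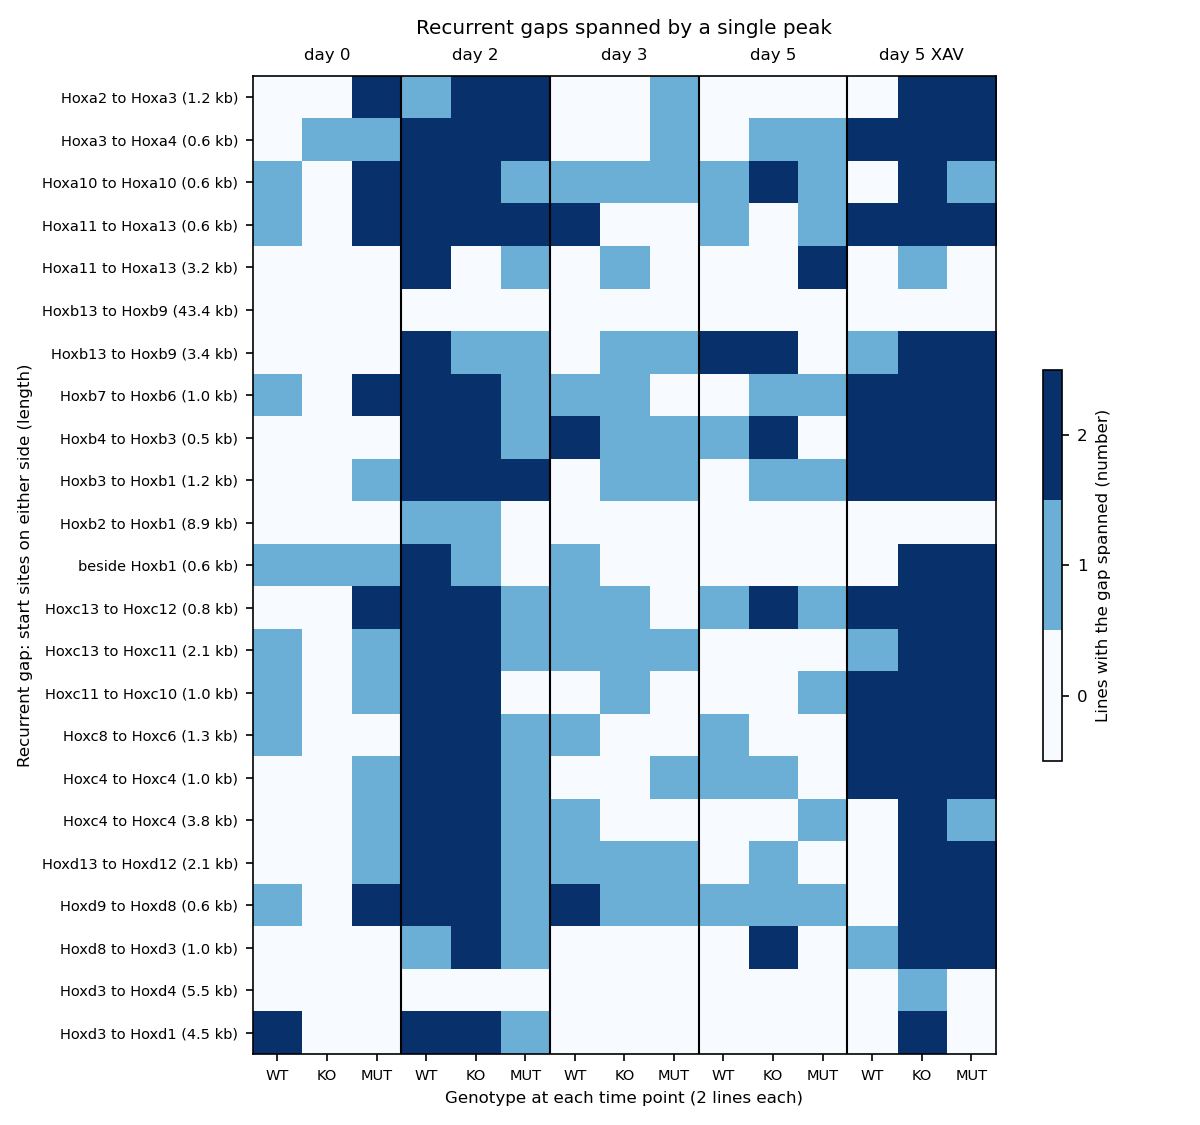
Number of lines (0, 1 or 2, by shade) of each genotype and time in which 1 peak spanned each of the 23 recurrent gaps, named by the start sites on either side with the length in kb. Dark cells fill most of the WT and KO columns at day 2 and the KO and MUT columns with XAV939, and the 43.4 kb gap between Hoxb13 and Hoxb9 stays at 0 throughout.

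How far the peak at the posterior end of a cluster ran on beyond it also changed with time. Reach was measured from the outer end of the outermost member to the outer end of the outermost peak touching the span, and a negative value means that this peak stopped inside. Separate peaks that lay farther out, as they did upstream of Hoxa13 in most libraries, were not counted, so reach tells where an unbroken peak ended and not where the mark ended. Past Hoxa13, reach at day 0 was −0.4 and −0.4 kb in WT, 0.2 and −0.3 kb in KO, and −0.4 and 6.9 kb in MUT lines. At day 2 it was 17.7 and 17.6 kb in WT, 17.7 and 17.7 kb in KO, and 8.8 and 6.6 kb in MUT lines. The WT and KO peaks thus ended at nearly the same place, and those of the MUT libraries were broken before it. At day 3 it was 17.4 kb in WT72 and −0.5 to 0.2 kb in the 5 other libraries. At day 5 it lay between −0.5 and 6.8 kb, and after XAV939 it was 17.7 and 17.6 kb in KO, 6.5 and 6.1 kb in WT, and 8.9 and −0.4 kb in MUT lines. Past Hoxd13 the peak ended 14.7 kb out in 4 of 6 libraries at day 2 (22.0 kb in KO25 and 2.4 kb in CM59). The same outer end, 14.5 to 14.8 kb, was met in 10 other libraries, and 1.2 to 1.4 kb was the commonest value in the rest. Past Hoxc13 reach was over 10 kb in 2 of 6 libraries at day 0, 6 at day 2, 2 at day 3, 5 at day 5 and 5 with XAV939. Past Hoxb13 it was over 10 kb in 0, 6, 3, 5 and 4 libraries at the same points. No test was made of these distances.

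**Figure D4:**
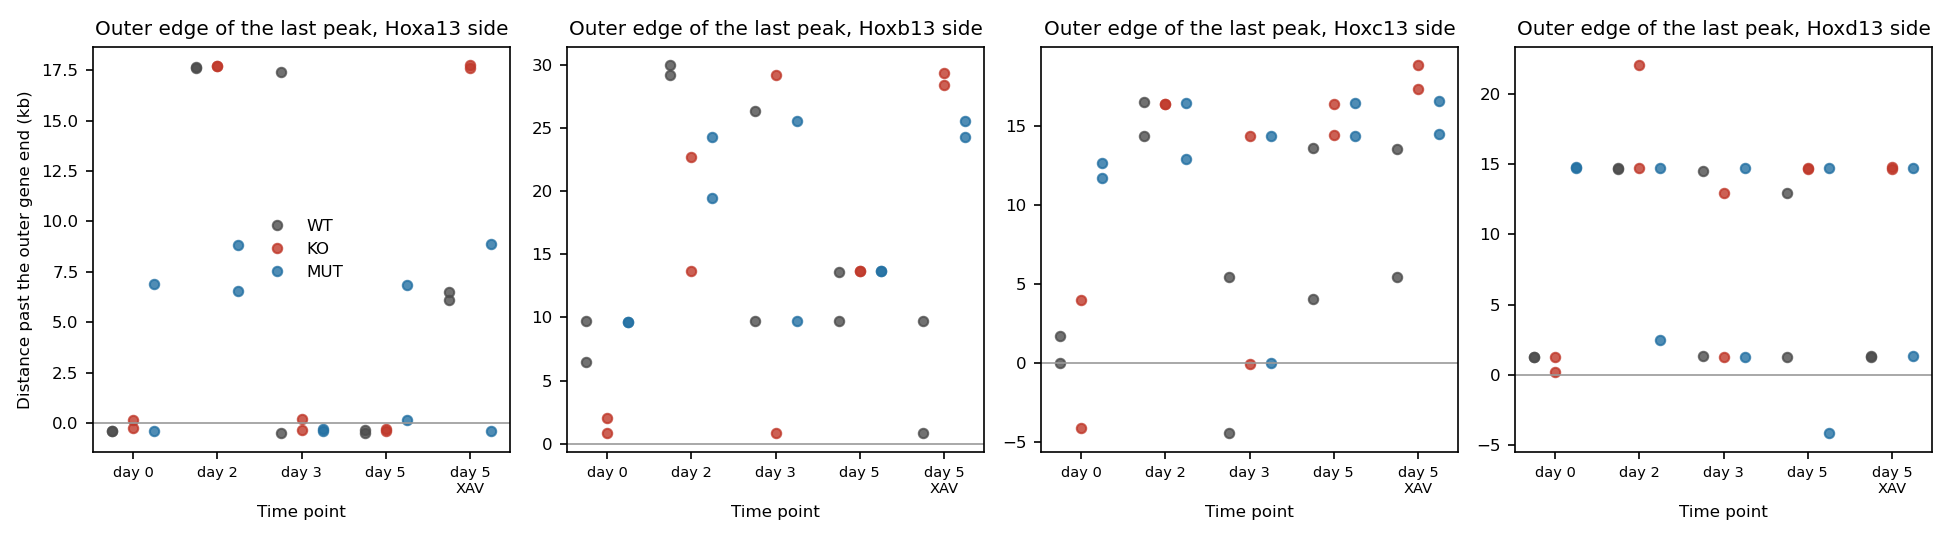
Distance in kb from the outer end of the paralogue 13 gene of each cluster to the end of the outermost peak, for each library (points, coloured by genotype) by time, with a line at 0 and a separate scale for each cluster. For HoxA the WT and KO points lie at 17.6 to 17.7 kb at day 2 and the MUT points at 6.6 and 8.8 kb, and with XAV939 only the KO points lie at 17.6 to 17.7 kb.

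Promoters of the members were almost never free of the mark. Of the 38 promoters, taken as windows reaching 1.5 kb up- and downstream of every annotated start, 35 were called in all 30 libraries, against 13.8% of the 3182 promoters of any gene called in 2 or more libraries. Covered whole in all 30 libraries were 13 members, against 3.02% of those promoters. These were Hoxa3, Hoxb4 and Hoxd1 of the anterior groups 1 to 4, Hoxa5, Hoxa6, Hoxb5, Hoxb9, Hoxc5 and Hoxd9 of the central groups 5 to 9, and Hoxa11, Hoxc10, Hoxd11 and Hoxd12 of the posterior groups 10 to 13. The median over members of the mean coverage was 95.9% for anterior, 99.5% for central and 96.8% for posterior genes. The only uncalled promoters were Hoxb2 in KO15 at day 0 and WT70 at day 3, Hoxb8 in WT70 at day 5 and Hoxd8 in WT70 after XAV939. Members share peaks, so their values are not independent.

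The promoters of 22 members could be matched to RefSeq sequences, which run from 250 bases before to 50 after the start. The 3 with the lowest mean coverage among the matched members and 3 of the always covered ones, for which 1 gene each of HoxA, HoxB and HoxD was taken, are printed to show how unlike in base composition they are, with CpGs in capitals, on the strand of the gene, from GRCm38.p6.
Hoxa13, chr6:52260831-52261130, minus strand: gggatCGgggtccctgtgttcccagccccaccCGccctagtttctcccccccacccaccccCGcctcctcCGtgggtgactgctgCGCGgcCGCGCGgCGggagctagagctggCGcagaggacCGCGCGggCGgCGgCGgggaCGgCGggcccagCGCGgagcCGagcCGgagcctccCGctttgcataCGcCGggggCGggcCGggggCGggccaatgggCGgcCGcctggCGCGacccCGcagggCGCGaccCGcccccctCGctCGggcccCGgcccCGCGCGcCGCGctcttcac
Hoxd4, chr2:74721728-74722027, plus strand: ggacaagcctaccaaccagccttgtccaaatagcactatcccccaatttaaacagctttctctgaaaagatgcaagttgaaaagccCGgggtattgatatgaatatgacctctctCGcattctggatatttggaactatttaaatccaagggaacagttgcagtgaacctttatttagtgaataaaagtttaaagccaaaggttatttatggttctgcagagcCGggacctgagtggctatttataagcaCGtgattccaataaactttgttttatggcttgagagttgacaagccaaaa
Hoxc4, chr15:103034145-103034444, plus strand: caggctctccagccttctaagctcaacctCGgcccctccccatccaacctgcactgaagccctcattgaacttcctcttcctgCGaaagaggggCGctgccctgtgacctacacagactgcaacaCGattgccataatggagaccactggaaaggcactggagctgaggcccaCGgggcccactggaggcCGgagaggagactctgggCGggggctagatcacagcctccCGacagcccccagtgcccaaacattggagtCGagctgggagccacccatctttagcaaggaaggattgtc
Hoxa3, chr6:52213018-52213317, minus strand: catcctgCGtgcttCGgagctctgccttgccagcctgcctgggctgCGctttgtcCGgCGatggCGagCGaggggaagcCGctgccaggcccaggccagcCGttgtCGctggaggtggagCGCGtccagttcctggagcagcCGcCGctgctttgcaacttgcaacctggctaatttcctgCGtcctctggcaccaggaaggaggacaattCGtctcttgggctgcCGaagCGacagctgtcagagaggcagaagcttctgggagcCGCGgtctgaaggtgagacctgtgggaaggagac
Hoxb4, chr11:96318017-96318316, plus strand: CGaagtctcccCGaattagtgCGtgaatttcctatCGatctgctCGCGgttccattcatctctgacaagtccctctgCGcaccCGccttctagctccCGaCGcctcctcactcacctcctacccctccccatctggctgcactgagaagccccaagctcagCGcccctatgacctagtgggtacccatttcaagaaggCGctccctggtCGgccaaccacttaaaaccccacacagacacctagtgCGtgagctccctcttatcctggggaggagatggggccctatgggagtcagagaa
Hoxd1, chr2:74762730-74763029, plus strand: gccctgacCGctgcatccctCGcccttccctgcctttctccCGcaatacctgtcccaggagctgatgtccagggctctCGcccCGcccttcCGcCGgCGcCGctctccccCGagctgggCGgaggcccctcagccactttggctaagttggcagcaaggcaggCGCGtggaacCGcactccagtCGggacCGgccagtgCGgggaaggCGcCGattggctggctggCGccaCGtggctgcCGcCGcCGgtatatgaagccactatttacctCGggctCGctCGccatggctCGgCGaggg
The CpG letters on either strand numbered 45 in Hoxa13, 4 in Hoxd4 and 9 in Hoxc4, and 20 in Hoxa3, 14 in Hoxb4 and 29 in Hoxd1. The median of 32851 RefSeq promoters of this length was 7 and that of 24 member promoters 14.5. Hoxa13, with more CpGs than 98.1% of all promoters, was nonetheless among the least evenly covered members, and Hoxd11 was covered whole in every library although 1 of its 2 matched promoters held 4 CpGs.

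Some anterior genes swung widely between times, while Hoxa3, Hoxb4 and Hoxd1 did not move. Other genes swung as well, as the mean over the libraries of a time ran from 57.6% to 91.7% for posterior Hoxc12. It ran from 70.5% to 100% for posterior Hoxa13 and from 69.2% to 100% for central Hoxb8. Hoxb2, which patterns the hindbrain, had the lowest mean coverage of all members, 75.7% ± 32.8 (SD, n = 30). At day 0 its window was covered to 50.2% and 59.0% in WT, 0% and 33.7% in KO, and 100% and 47.2% in MUT lines. At day 2 and after XAV939 it was covered whole in 6 of 6 libraries each. Between those points it was broken again, with 11.7% and 56.2% in WT, 100% and 56.5% in KO, and 100% and 50.9% in MUT lines at day 5. Hoxa4 was covered to 46.6% to 50.8% in 4 of 6 libraries at day 0, and whole in all later libraries but KO15 at day 3 (54.8%). Hoxd4, whose window reaches into the least often spanned HoxD gap, was called in every library and covered whole in 3 of 30, WT70 at day 5 and both KO lines after XAV939. Hoxc4 and Hoxb3 had means of 90.2% ± 15.6 and 92.6% ± 13.1, and each was covered whole in 17 of 30 libraries. The first members of their clusters were covered nearly throughout, Hoxa2 to 96.7% ± 13.8, Hoxb1 to 96.7% ± 10.1 and Hoxd1 to 100% in every library. Hoxa2 was low in WT70 at day 3 (70.3%) and CM69 at day 5 (29.6%) only.

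As 1 value, the mean coverage of the 11 anterior promoters rose from 87.0% ± 7.86 at day 0 to 98.6% ± 2.52 at day 2 (11.6 percentage points, exact permutation p = 0.0370, paired exact p = 0.0312, up in 6 of 6 lines). It fell to 90.4% ± 7.38 at day 3 (exact permutation p = 0.0185) and was 92.6% ± 6.96 at day 5. With XAV939 it was 99.2% ± 0.861, higher than without in 6 of 6 lines (6.63 percentage points, exact permutation p = 0.0185, adjusted p = 0.0833). The posterior promoters, at means of 76.4% to 96.7% by library at day 0 and 94.3% to 100% at day 2, were not tested in this way. At day 5 with XAV939 the 2 KO libraries alone had all 38 members covered whole. The number was 30 and 31 in WT and 37 and 34 in MUT lines, and at day 2 it was 37 in each library except CM59 (31).

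The central genes were the most evenly covered. Hoxb8, a gene of the trunk, was covered whole in 26 of 30 libraries, and the exceptions were KO15 at day 3 (69.6%) and, at day 5, WT70 (0%), WT72 (65.4%) and CM69 (49.8%). The 2 KO libraries and CM59 at day 5 were covered whole at Hoxb8. Hoxb6 had a mean of 93.3% ± 12.3, and Hoxd8 of 93.8% ± 19.7 with 0% in WT70 after XAV939 and 54.3% in KO25 at day 0. Among the posterior genes, which are used last in the tail and limbs, Hoxc12 (78.2% ± 26.5) and Hoxa13 (82.6% ± 17.8) were the most often broken. Hoxa13 was covered whole in 6 of 6 libraries at day 2 and 5 of 6 after XAV939, and in 1 of 6 at each of days 0, 3 and 5. Hoxc12 was covered whole in 5 of 6 libraries at day 2 and after XAV939, in 2 at day 0, 3 at day 3 and none at day 5. Hoxd13 had a mean of 90.7% ± 19.5 and its lowest value, 2.4%, in CM69 at day 5, and Hoxb13 was covered whole in 27 of 30. Hoxc11 and Hoxc13 had means of 91.3% ± 18.8 and 91.8% ± 19.5.

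**Figure D5:**
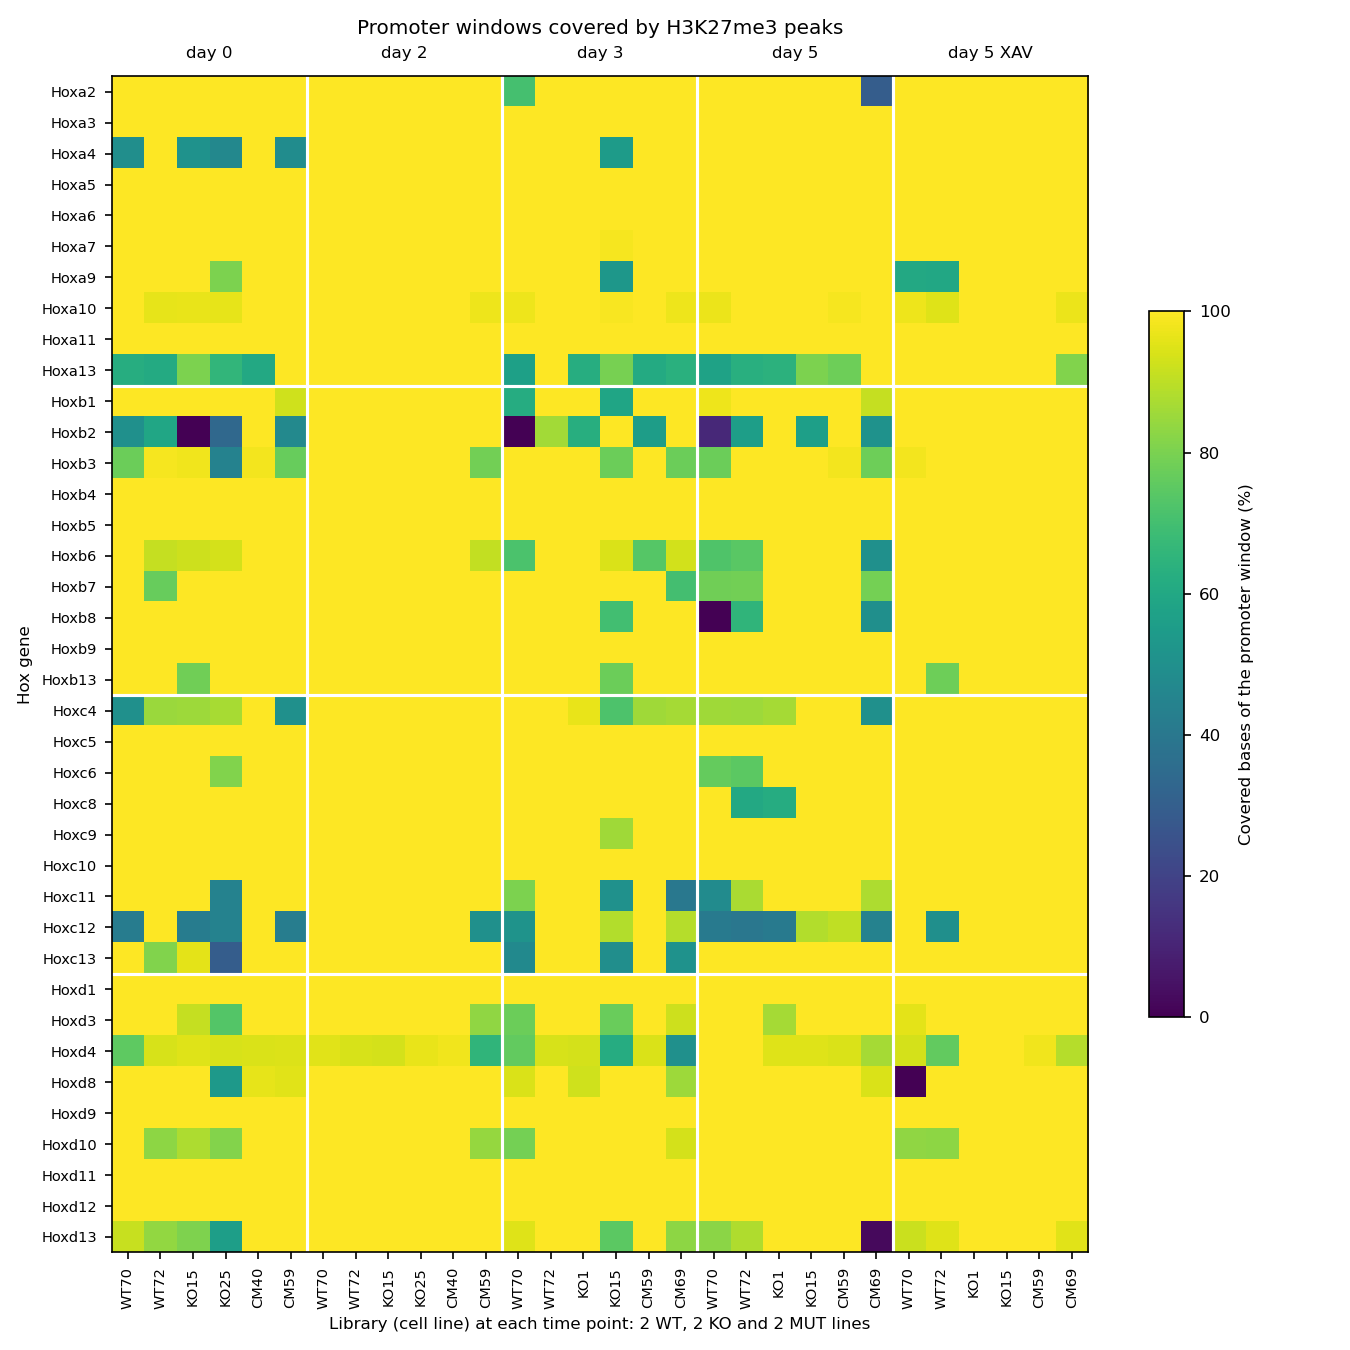
Covered percent of the promoter windows of the 38 members (rows, by cluster and paralogue group) in the 30 libraries (columns, by time and genotype). Whole coverage runs through nearly all rows at day 2 and in the KO libraries after XAV939, and Hoxd4, whole in 3 of 30 libraries, Hoxa13 (14) and Hoxc12 (15) are the rows most often broken.

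The covered share differed between KO and WT in opposite directions at different times. At day 0 the KO libraries lay at 69.4% and 69.9%, below both WT (76.3% and 79.7%) and both MUT libraries (77.3% and 84.6%). At day 2 both KO (90.3% and 90.3%) and WT (90.5% and 90.6%) lay close together, and with XAV939 KO stood at 91.0% ± 0.169 (n = 2) and WT at 81.0% ± 0.0509 (n = 2). With XAV939 the 20 widest other regions also lay higher in KO (44.5% and 48.1%) than in WT (32.8% and 32.1%). A mean over times sets the differences in Hox coverage against each other, and whether they differ between times was not tested. Over all 5 times KO lines had a covered share of 82.9% ± 9.09 (n = 10), MUT lines of 82.9% ± 5.58 and WT lines of 81.0% ± 6.19. KO exceeded WT by 1.90 percentage points (exact permutation p = 0.427 within times) and MUT exceeded WT by 1.88 (exact permutation p = 0.449). The same lines were sampled at several times, and the genotype tests here and below exchange libraries and not lines. Their n counts libraries, and their p-values do not account for repeated lines. After day 2, KO lay at 84.9% ± 7.23 and WT at 78.9% ± 4.70, a difference of 6.04 percentage points (n = 6 and 6 libraries from 2 lines each, exact permutation p = 0.102). The peak count was 0.623 times as high in KO as in WT (exact permutation p = 0.120). After day 2 the values of both genotypes overlapped. Relative to the 20 widest other regions, covered to 44.5% ± 5.20 in KO and 34.1% ± 6.06 in WT, the sign turned to −4.33 percentage points (exact permutation p = 0.00926). This too is a description, since those regions were picked on the same libraries. Of 36 tests of the clusters, 13 had an exact p under 0.05 and none an adjusted p under 0.05, the lowest being 0.0833.

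The share of all peak signal that lay over the clusters differed between times more clearly than between genotypes. It was 3.46% ± 0.708 (n = 6) at day 0 and 5.37% ± 0.413 at day 2, and the groups did not overlap (0.66 on the log2 scale, exact permutation p = 0.00926, up in 6 of 6 lines). It was highest at day 3 (6.22% ± 0.821, exact permutation p = 0.0463 against day 2), and fell in 6 of 6 lines to 5.20% ± 1.02 at day 5 (−0.27 on the log2 scale, exact permutation p = 0.00926). The direction of the day 0 to day 2 step rests on summing signal over peak width, since with the highest signal of each peak in place of its sum the step was −0.64 on the log2 scale (exact permutation p = 0.148). Counted only over peaks in regions called in all libraries, the day 2 to day 3 step turned to −0.04 and the day 3 to day 5 step was −0.076 (exact permutation p = 0.491 and 0.0926). With XAV939 it was 5.86% ± 1.19, of which CM59 gave the highest value, 8.20%, in the library with the fewest peaks. After day 2 the share was lower in KO than in WT by 0.31 on the log2 scale (exact permutation p = 0.0463, adjusted p = 0.128). The call is lost when the same number of peaks is taken from each library (−0.09, exact permutation p = 0.194), and KO libraries after day 2 held 1729 to 2738 peaks in all against 969 to 1717 in WT. Over all times the KO share was also lower than the MUT share (−0.20 on the log2 scale, exact permutation p = 0.0435, adjusted p = 0.128), a call that was lost without any 1 of CM59 (−0.11), KO1 (−0.25), KO15 (−0.20) or KO25 (−0.15).

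Within a library the clusters held the strongest or nearly the strongest signal. Peaks were ranked by the sum of their signal, and the best Hox peak ranked 1 in 19 of 30 libraries and no lower than 8 in any. It ranked 1 in none of the 6 libraries at day 0, in 5 at day 2, 4 at day 3, 6 at day 5 and 4 after XAV939. The leading peak changed cluster with time. It lay over HoxC in 3 and HoxA in 2 libraries at day 2, over HoxB in 3 and HoxA in 1 at day 3, over HoxA in 6 of 6 at day 5 and over HoxC in all 4 after XAV939. HoxD never led. A joined peak sums more signal, so a rank moves with the width of the peak.

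Per promoter, the strongest peak was placed among all peaks of its library, and a promoter without a peak counted as 0. On this scale the median member had a mean percentile of 98.1, and the median of all called promoters was 53.1 to 56.7 by library. Above the 95th percentile were 25 members and above the 99th 13. The lowest were at or near the ends of the clusters, Hoxb1 at 64.7 ± 23.5 (SD, n = 30), Hoxb2 at 70.6 ± 36.6, Hoxd13 at 70.9 ± 37.7 and Hoxd1 at 73.3 ± 20.0. Hoxd1, covered whole in every library, was thus of modest signal. At day 2 the mean percentile of Hoxd1 was 93.7 and that of Hoxb1 80.9, against 60.1 and 53.5 at day 3.

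Tests of the genotype over the 3182 promoters, with times kept together, called none of the 38 members for coverage. For the 13 members covered whole in every library no call was possible, and others lay near this ceiling. The share of all promoters with an unadjusted exact permutation p under 0.05 was 7.83% for KO against WT, 2.07% for MUT against WT and 3.55% for KO against MUT. For the rank of signal it was 15.1%, 2.92% and 6.25%, and 1, 3 and 0 members passed. Hoxd3 was higher in KO than in WT by 2.17 percentiles (exact permutation p = 0.0203, adjusted p = 0.241). Hoxb2, Hoxd13 and Hoxa10 were higher in MUT than in WT by 31.1, 35.8 and 1.16 percentiles (exact permutation p = 0.0489, 0.0394 and 0.00772, adjusted p = 1 for each). No promoter of any gene passed an adjusted p of 0.05 in these 6 comparisons. Only for rank in MUT against WT (3 of 38) was the share of members above that of all promoters.

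Genes beside the clusters were marked differently from those within. Of 17 protein-coding neighbours found, Evx1 and Evx2, homeobox genes next to the posterior ends of HoxA and HoxD, were called in 30 of 30 libraries. Smug1 was called in 27 and Skap1 in 4, and 13 neighbours in none. Among all 21901 genes, 3182 had a promoter called in 2 or more libraries. The RNAs encoded inside the clusters shared the mark, as 9 of 11 were called in all libraries, and the long non-coding RNA Hotair and Mir196a-1 in 29 each. Mature forms of the microRNAs are printed because the families are spread over several clusters, with the seed, bases 2 to 8, in capitals (RefSeq, GRCm38.p6).
mmu-miR-10a-5p, HoxB: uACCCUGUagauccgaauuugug
mmu-miR-10b-5p, HoxD: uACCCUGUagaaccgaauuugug
mmu-miR-196a-5p, HoxB and HoxC: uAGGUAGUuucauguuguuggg
mmu-miR-196b-5p, HoxA: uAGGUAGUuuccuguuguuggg
mmu-miR-615-3p, HoxC: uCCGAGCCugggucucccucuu
The miR-10 sequences shared the seed ACCCUGU and the miR-196 sequences AGGUAGU, and miR-615 had CCGAGCC.

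Genes of proteins that bind DNA with Hox factors were much less often marked than the Hox genes. Their counts stand beside the 3182 of 21901 genes called in 2 or more libraries. Of 9 Hox cofactor genes 6 were called in none of the libraries, and Meis1, Pknox2 and Meis2, homeodomain partners of Hox proteins, were called in 26, 14 and 13. Of 6 ParaHox and Cdx genes, relatives of the Hox genes that lie elsewhere, Cdx2, Gsx1 and Gsx2 were called in all 30, Pdx1 in 29 and Cdx1 in 27. Cdx4, a regulator of Hox genes in the tail bud, was called in 18. Of 13 genes that act upstream of Hox expression 4 were called in all libraries and the retinoic acid receptors Rara and Rarg in none.

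Regions called different between KO and WT were also deposited as 4 lists of positions without values. The list gained in KO at day 5 with XAV939 (1897 regions) touched the promoters of all 38 members with 5 regions, 2 in HoxB and 1 in each other cluster, against 55.7% of the 3182 promoters of any gene. The list named for an early loss in KO with no later gain (792 regions) touched 10 HoxA, 9 HoxD and 1 HoxB promoter with 3 regions, against 20.6% of all promoters. The lists of 748 regions (loss, then gain) and 1443 regions (later gain only) touched none, against 20.9% and 39.7%. Because a whole cluster can lie in 1 region, the members are not separate calls. The listed regions were chosen on these KO and WT libraries and are not independent evidence of a direction.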

How the data were processed

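H3K27me3 CUT&RUN was done in 30 samples and IgG CUT&RUN in 30 more, all from mouse ESC lines and their progeny. Read trimming (Trim Galore), local alignment to mm10 (Bowtie, GRCm38.p6) and duplicate removal (Picard) were done by the authors. Peaks came from the stringent setting of SEACR with the matching IgG as background, library by library. The SEACR version is not given in the sources used here. The deposited signal of a peak is its summed and its highest fragment coverage, not scaled for depth, and depth is unknown. IgG samples entered only through peak calling. The 4 deposited region lists, made with DiffBind 3.0.15 on KO and WT libraries, hold positions only.

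Groups came from sample titles and cell line labels. The free-text description of the KO25 samples names a WT70 file, and the title was followed. Cluster spans ran from the first to the last member in the reference annotation of GRCm38.p6, and no peak passed a chromosome end. Promoter windows were ±1.5 kb around the annotated protein-coding start sites, and a promoter was called when at least 1 bp was covered. For each library the number of peaks touching the spans, the covered percent of the spans, the mean covered percent of the promoters of paralogue groups 1 to 4, and the percent of all peak signal over the spans were computed (counts and shares on the log2 scale). Ranks and percentiles used summed signal within a library.

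Genotypes were compared by two-sided exact permutation tests with labels exchanged within times, and times with labels exchanged within genotypes, over 36 tests with Benjamini-Hochberg adjustment. Promoters of all genes called in 2 or more libraries were tested in the same way, adjusted over all 3182. Replicates were cell lines or clones. A line sampled at several times entered the genotype tests as separate libraries, so their p-values do not account for the line. Time steps were also paired by cell line with an exact sign-flip test, the pairing coming from the line labels. The difference between the lines of a genotype in covered share had the same sign at both ends of the step in 3, 3 and 1 of 3 genotypes, for steps from day 0, 3 and 5. The permutation tests of the clusters and of the promoters were also run on simulated data. These had independent libraries, so they cannot show the error rate of the genotype tests with repeated lines. Python 3.11.15, NumPy 2.4.6, SciPy 1.17.1, pysam 0.24.0, samtools 1.23.1 and Matplotlib 3.10.9 were used.

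Members and lists were chosen with earlier results of these data known. The named members were the 12 with the lowest mean promoter coverage and the first and last of each cluster. Alternatives were other promoter windows, spans and peak subsets, joined peaks, highest in place of summed signal, and each line, or CM59 with XAV939, left out. Leaving out CM59 at day 2, values relative to the 20 widest other regions and region widths without each library in turn were chosen after seeing the data.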

Additional observations from a re-analysis of the deposited data

Results flagged for a closer look

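In groups of 6 libraries, 1 for each of 5 times and 6 measures, 4 of 30 groups had a library whose gap to its nearest neighbour exceeded Dixon's 95% critical value, and chance alone flags about 1 in 20 groups. Of these, 3 were the CM59 library at day 2. It had 28 peaks over the clusters where the next highest library had 8, a covered share of 77.5% where the next lowest had 90.3%, and an anterior promoter coverage of 93.4% where the next lowest had 99.4%. Its median peak height (60) lay within the range of the day (39 to 71). Its sequencing depth is unknown, and the part of depth or library quality in these values was not tested. The other was the CM59 library at day 5 with XAV939, with 8.20% of its signal over the clusters against at most 5.82% in the others, and 704 peaks in all, the fewest of any library.

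In 2 cases both lines of one genotype moved one way and both lines of another the opposite way, and the difference was not tested. From day 3 to day 5 the mean number of peaks over the clusters rose by 7.5 in WT and changed by −6.5 in MUT lines, 14 peaks apart. From day 5 to day 5 with XAV939 the signal share changed by −0.936 percentage points in WT and by 1.33 in KO lines, a difference of −2.27.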

How the results depend on the processing

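Differences are in percentage points for coverage and on the log2 scale for peak number and signal share, and the cause of a change was not tested unless the setting itself shows it. With the same number of peaks from every library, signs turned for cluster coverage in KO minus WT (−0.44) and KO minus MUT (−2.43) over all times. They also turned for anterior promoter coverage in MUT minus WT over all times (−2.30), in KO minus WT (−7.07) and MUT minus WT (−0.12) after day 2, and from day 3 to day 5 (−3.14). Signal share in MUT minus WT turned to 0.035 over all times and 0.036 after day 2. Anterior promoter coverage in KO minus WT over all times (−8.80) and peak number in KO minus WT after day 2 (−0.85) now passed. Signal share in KO minus WT after day 2 (−0.094) and from day 2 to day 3 (0.076), and anterior promoter coverage from day 0 to day 2 (23.10) and day 2 to day 3 (−10.67), no longer passed. With the same number from every library of a time, signs turned for anterior promoter coverage in KO minus WT (0.33), signal share in MUT minus WT (0.024, after day 2 0.027) and cluster coverage in KO minus MUT (−0.88). Cluster coverage from day 2 to day 3 (−10.48) and signal share on XAV939 (0.36) now passed, and signal share in KO minus WT after day 2 (−0.096) and anterior promoter coverage on XAV939 (5.42) did not.

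Relative to the 20 widest other regions, cluster coverage turned in KO minus WT (−1.38 over all times, −4.33 after day 2), KO minus MUT (−2.50), MUT minus WT after day 2 (−0.68), from day 0 to day 2 (−9.14) and from day 2 to day 3 (24.25). It now passed from day 3 to day 5 (8.82), where peak number turned (0.24). Peak number after day 2 passed for KO minus WT (−0.79) and MUT minus WT (−0.61), and on XAV939 (−0.49) no longer did. As those regions were picked by width on these same libraries, these values are a description. With windows of 3 kb the anterior promoter value turned in KO minus WT (1.26) and KO minus MUT (0.97), and with 500 bp in MUT minus WT (−0.22, after day 2 −0.046). Its day 2 to day 3 step did not pass with 3 kb (−10.07), 500 bp (−7.61) or the starts of all transcripts (−8.23). With 10 kb added to the spans, signal share in KO minus WT (−0.22) and cluster coverage from day 2 to day 3 (−10.86) passed, and coverage on XAV939 (4.80) did not. With the highest signal of each peak, signal share turned from day 0 to day 2 (−0.64) and on XAV939 (−0.75), and lost its call in KO minus MUT (−0.28) and from day 3 to day 5 (−0.41). Over regions called in all libraries it turned in MUT minus WT (0.027, after day 2 0.053) and from day 2 to day 3 (−0.040), and lost its call in KO minus MUT (−0.042), KO minus WT after day 2 (−0.0099) and from day 3 to day 5 (−0.076).

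Paired within cell lines, as a replicate block, the steps had the same sizes where all 6 lines were shared. The block ended the call for peak number from day 0 to day 2 (−1.55), from day 2 to day 3 (1.38) and on XAV939 (−0.999), and for anterior promoter coverage (−9.24) and signal share (0.17) from day 2 to day 3, and changed no other call. Between days 2 and 3 its smallest exact p is 0.125. Without CM59 at day 2, a choice made after seeing the data, KO minus MUT turned for cluster coverage (−1.25) and peak number (0.14). Peak number in MUT minus WT (−0.43) and coverage from day 2 to day 3 (−11.28) passed, and signal share in KO minus MUT (−0.19) and from day 2 to day 3 (0.22) did not. Without CM59 on XAV939, signal share in KO minus MUT (−0.14) and anterior promoter coverage on XAV939 (6.497) did not pass.

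Leaving out each line in turn leaves 1 library of that genotype at a time and fewer arrangements. Over all times, KO minus WT then ran from −0.29 to 4.09 for cluster coverage, −3.56 to 3.44 for anterior promoter coverage and −0.30 to −0.10 for signal share, which passed without WT72. MUT minus WT ran from −0.31 to 4.07, −2.91 to 4.09 and −0.10 to 0.095 for the same measures. KO minus MUT ran from −1.95 to 2.03, −2.88 to 1.65 and −0.26 to −0.11, and from −0.25 to 0.12 for peak number. After day 2, KO minus WT ran from −1.82 to 5.82 for anterior promoter coverage, −0.92 to −0.45 for peak number, which passed without KO15, and −0.40 to −0.23 for signal share, whose call was lost without any 1 of its lines. MUT minus WT ran from −2.84 to 4.80 for anterior promoter coverage and −0.088 to 0.042 for signal share. From day 0 to day 2 the ranges were 11.13 to 12.97 for cluster coverage, 9.53 to 13.66 for anterior promoter coverage and −1.80 to −1.29 for peak number, and each of the first 2 lost its call without any WT or KO line and the last also without CM40. From day 2 to day 3 they were −12.68 to −6.60, which passed without CM59 or KO1, −11.18 to −5.23, 1.16 to 1.91, and 0.16 to 0.28 for signal share. The anterior value lost its call without KO15, KO25, WT70 or WT72, peak number without KO15, WT70 or WT72, and signal share without any line but KO15. From day 3 to day 5 they were −0.18 to 4.49, −0.44 to 4.95 and −0.33 to 0.15. On XAV939 anterior promoter coverage ran from 3.64 to 9.63 and peak number from −1.14 to −0.86. The first lost its call without any WT or KO line and the second without any line but WT72, and cluster coverage kept its call without any 1 line.

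Promoters of all genes at an unadjusted p under 0.05 numbered 249, 66 and 113 for coverage (KO minus WT, MUT minus WT, KO minus MUT) and 482, 93 and 199 for rank. With the same number of peaks at a time, coverage gave 101 for KO minus WT and 63 for KO minus MUT, and rank gave 284 for KO minus WT, with 10 at an adjusted p under 0.05, and 256 for MUT minus WT. Windows of 3 kb gave 105 for MUT minus WT in coverage, windows of 500 bp 32 and, for KO minus MUT, 50, and highest signal 165 for MUT minus WT in rank. Leaving out 1 line gave 115 to 249, 24 to 88 and 59 to 196 for coverage, and 178 to 482, 26 to 221 and 96 to 347 for rank. The lowest counts for comparisons with WT were those without WT70.

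The main limits are 2 lines per genotype and time, genotype tests that ignore repeated lines, a change of KO and MUT line after day 2, unscaled signal and unknown depth. A peak list gives no value where nothing was called.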

Other observations

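The clusters took up the mark unevenly over time. Mean coverage of HoxA was 90.9% ± 4.05 (SD, n = 6) at day 0, 98.1% ± 1.83 at day 2, 92.3% ± 5.50 at day 3, 94.97% ± 1.96 at day 5 and 96.2% ± 2.87 after XAV939. HoxB, with its never-covered stretch, lay at 60.2% ± 5.16 and 73.2% ± 5.73 at days 0 and 2, and at 72.1% ± 4.19 after XAV939. HoxC lay at 83.1% ± 9.39 at day 0 and 97.9% ± 4.75 at day 2, and HoxD at 81.9% ± 7.89 and 93.8% ± 9.06. All 4 means were highest at day 2.

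The highest signal within a cluster kept to a few genes. In HoxC the start site nearest the highest signal was that of Hoxc9 in 20 of 30 libraries, at every time, and in HoxD that of Hoxd3 in 15. In HoxB it was that of Hoxb13 in 11 libraries, Hoxb3 in 7 and Hoxb4 in 7. These positions are a description and were not tested.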
